A study of Mus musculus with 12 samples.

Results

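The genes described here encode 9 nuclear receptors of lipid, energy and bile acid metabolism and the coactivator that serves several of them: Ppara, Ppard, Pparg, Rxra, Esrra, Esrrg, Nr1h4, Nr0b2, Nr5a2 and Ppargc1a. They are 10 of the 21900 protein-coding mouse genes in RefSeq. They were chosen with the difference between treatments already in view, so that difference is given below as a description, and the counts of peaks past the test carry no support of their own. Every peak called by either peak caller that overlapped the RefSeq span of a member, extended by 1 kb on each side, was taken. That gave 302 of the 274593 peaks in the deposited table. From the SEACR caller, on which the values below rest unless MACS2 is named, 83 of 58548 peaks carried H3K4me3, 42 of 105301 carried H3K27me3 and 97 of 62547 carried H3K27ac. From the MACS2 caller the members held 66 of 36552 H3K4me3 peaks, 0 of 1828 H3K27me3 peaks and 14 of 9817 H3K27ac peaks.

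CUT&RUN releases the chromatin bound by an antibody by tethering a nuclease to it, and it was applied to mouse intestinal organoids. Organoids, which are epithelial cultures grown in Matrigel from isolated crypts, received vehicle or AA (arachidonic acid in the title of the series) at 25 µM for 6 days. Each of the 3 histone marks was measured in 2 vehicle and 2 AA libraries, 12 libraries in all. The labels give no genotype, strain, sex or age for these libraries and do not tell whether the 2 libraries of each group represent independent cultures or mice, so their spread may be technical. The design text of the series names Ptger knockout organoids and a prostaglandin arm for H3K27ac. No library used here carries such a label, so the genotype shared by both groups is not settled, and the prostaglandin arm was not analysed here. The growth medium of both groups held EGF, Noggin, R-spondin, CHIR-99021 and Y-27632.

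Nuclear receptors are transcription factors whose activity is set by small lipophilic ligands, or that act without a known one. The PPARs bind fatty acids and their derivatives and pair with RXR on DNA to drive fat oxidation and storage, and arachidonic acid and its metabolites are among their ligands. The estrogen-related receptors need no estrogen and, with PGC-1 coactivators, drive mitochondrial genes, while FXR, SHP and LRH-1 form the circuit by which the ileum and liver sense bile acids. H3K4me3 marks the starts of active or poised genes, H3K27ac marks active starts and enhancers, and H3K27me3, laid down by Polycomb complexes, marks silenced genes.

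Esrrg, Nr0b2 and Nr5a2 are the members whose H3K4me3 fell, and the 250 bases upstream of 5 of their 7 listed starts are shown so that their base composition can be seen beside the values. At Nr5a2 both starts are given, since the H3K27me3 gain covered start 2 and not start 1. The bases are those RefSeq gives for build GRCm38.p6, read 5′ to 3′ on the strand of the gene, with each CpG dinucleotide, the target of DNA methylation and a feature of Polycomb-bound starts, in capitals. Listed starts are numbered along transcription. The windows precede starts 2 (chr1:187651508-187651757) and 4 (chr1:187997577-187997826) of Esrrg and the start of Nr0b2 (chr4:133553126-133553375), all on the plus strand, and starts 1 (chr1:136960449-136960698) and 2 (chr1:136953631-136953880) of Nr5a2, on the minus strand.
Esrrg start 2: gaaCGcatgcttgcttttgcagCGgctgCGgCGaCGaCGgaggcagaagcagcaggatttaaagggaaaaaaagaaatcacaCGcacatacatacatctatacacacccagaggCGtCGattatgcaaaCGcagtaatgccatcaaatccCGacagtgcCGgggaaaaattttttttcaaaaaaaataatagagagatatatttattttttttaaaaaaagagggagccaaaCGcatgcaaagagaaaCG
Esrrg start 4: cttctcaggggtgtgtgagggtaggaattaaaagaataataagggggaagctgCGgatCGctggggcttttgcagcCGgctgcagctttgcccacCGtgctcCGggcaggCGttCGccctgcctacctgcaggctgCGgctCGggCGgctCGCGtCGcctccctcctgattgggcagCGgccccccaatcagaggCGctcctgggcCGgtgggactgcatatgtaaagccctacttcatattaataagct
Nr0b2 start: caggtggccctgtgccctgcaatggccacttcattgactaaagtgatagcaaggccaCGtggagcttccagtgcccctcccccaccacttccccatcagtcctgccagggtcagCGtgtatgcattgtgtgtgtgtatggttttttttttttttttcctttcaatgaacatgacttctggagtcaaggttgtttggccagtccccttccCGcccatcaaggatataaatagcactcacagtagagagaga
Nr5a2 start 1: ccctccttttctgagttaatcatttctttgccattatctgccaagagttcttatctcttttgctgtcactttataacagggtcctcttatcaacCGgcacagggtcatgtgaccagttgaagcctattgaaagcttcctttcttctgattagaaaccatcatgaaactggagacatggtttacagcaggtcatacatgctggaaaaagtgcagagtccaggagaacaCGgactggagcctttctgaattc
Nr5a2 start 2: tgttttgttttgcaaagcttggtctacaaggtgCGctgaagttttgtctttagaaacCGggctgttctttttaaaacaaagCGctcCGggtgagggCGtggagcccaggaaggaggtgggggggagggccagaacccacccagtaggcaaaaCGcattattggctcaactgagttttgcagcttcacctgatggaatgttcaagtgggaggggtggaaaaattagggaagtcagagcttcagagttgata

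The printed windows of Esrrg hold 14 and 16 CpG, that of Nr0b2 holds 3, and those of Nr5a2 hold 2 and 6. Over all 32851 starts in the RefSeq table the median is 6. All 10 members matched that table, with 17 starts. Across the remaining 12 member starts the windows of Rxra and Pparg were the richest, with 40 CpG at the first start of Rxra and 38 at the first start of Pparg, followed by Ppara with 27 and by Ppard, Esrra and start 3 of Esrrg with 22 each. Start 1 of Esrrg holds 9. Nr1h4 and Ppargc1a hold 5 each. AGGTCA, the core hexamer bound by many nuclear receptors, was found on either strand in 5 of the 17 member windows and in 14.0% of all starts. The longer CAAGGTCA, which contains that hexamer and is the extended form bound by estrogen-related receptors and LRH-1, was found in 0 of the 17 and in 1.33% of all starts.

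The deposited value of a peak is a score equal to the mean coverage per base times a scale factor of its library, so scores of peaks of different widths and of different genes can be compared within a mark. Differences below are AA minus vehicle on the log2(score + pseudocount) scale with their standard errors. This scale understates the change of low peaks. A peak is said to have risen or fallen where limma gave a Benjamini-Hochberg adjusted p under 0.05 over all peaks of the mark. In bulk cultures fewer cells with a mark and less mark per cell cannot be told apart.

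The libraries differed in depth, and for H3K4me3 the depth moved with treatment. For H3K4me3, median coverage per base over SEACR peaks was 3.38 and 2.35 for vehicle against 1.37 and 1.46 for AA. It was 1.85, 1.29, 1.19 and 1.60 in that order for H3K27me3 and 1.95, 2.45, 2.28 and 2.76 for H3K27ac. The part of this difference in the results was not tested. Replicates ranked peaks alike for H3K4me3 (Spearman 0.81 in vehicle and 0.72 in AA, across peaks) and poorly for H3K27me3 (0.19 and 0.29). The median peak differed by -0.19 for H3K4me3, 0.12 for H3K27me3 and 0.11 for H3K27ac. Of all H3K4me3 peaks 35504 of 58548 lay below 0. Above 0 lay 62078 of 105301 H3K27me3 peaks and 39500 of 62547 H3K27ac peaks. For H3K4me3 the MACS2 set leaned the other way, with 19527 of 36552 peaks above 0 and a median of 0.05. All 10 epithelial marker genes had an H3K4me3 peak at their start, with a median vehicle score of 0.883. By contrast 4 of 10 fibroblast, 2 of 10 blood and 2 of 9 endothelial and glial markers had one, and Ptprc and Pecam1 had none. Summed H3K4me3 over the fibroblast markers was 1.19 and 1.35 in vehicle and 1.07 and 0.864 in AA, and over the epithelial markers 8.52 and 7.86 in vehicle and 10.4 and 9.09 in AA. Their part in the results was not tested.

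Across the members, 9 H3K4me3 peaks fell and 1 rose after AA, 6 H3K27me3 peaks rose and 0 fell, and no H3K27ac peak passed the test. The H3K4me3 losses lay in Esrrg, with 7 peaks, and in Nr0b2 and Nr5a2, with 1 each, and the gain lay at the start of Ppard. The H3K27me3 gains lay in Esrrg, with 4 peaks, and in Nr5a2 and Ppara, with 1 each. Among all H3K4me3 peaks 1.38% fell and 1.54% rose, and among all H3K27me3 peaks 0.498% rose and 0.0475% fell. Because the members were chosen from this contrast, nothing is read from their counts against these shares. In the MACS2 set 12 of the 66 H3K4me3 member peaks fell and 3 rose, where 1.09% of all MACS2 H3K4me3 peaks fell and 5.22% rose. Of all 1828 MACS2 H3K27me3 peaks, which include no member peak, 1 rose and 9 fell, so the lean towards gains was that of the SEACR set. The median difference over the members was -0.47 for H3K4me3, 0.36 for H3K27me3 and 0.03 for H3K27ac.

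These counts rest on few libraries. Without either vehicle library 1 of the 10 H3K4me3 calls was left, that of the Esrrg peak 54.5 kb past the first start. More member peaks passed without AA library 1 or without AA library 2, and so did a larger share of all H3K4me3 peaks. Centring each library on its median gave 14 H3K4me3 calls, 9 lower and 5 higher, in place of 9 and 1. The share of all H3K4me3 peaks called was then 10.4% in place of 2.92%. For H3K27me3, 0 of the 6 calls were left when any of the 4 libraries was dropped, and centring also left 0. In these fits the lone library of a group is assumed to vary like the other group.

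For H3K27ac, limma called 0 of the 97 SEACR peaks, against 0.2% of all SEACR peaks, and 0 of the 14 MACS2 peaks, where it called 0 of all 9817. At an unadjusted p under 0.05 there were 8 and 2 member peaks, where 7.71% of all SEACR and 7.07% of all MACS2 H3K27ac peaks were under it. The 8 were 2 peaks each of Rxra, Esrra and Esrrg and 1 each of Ppard and Pparg. Those of Esrrg lay below 0 and the other 6 lay above it.

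**Figure D1:**
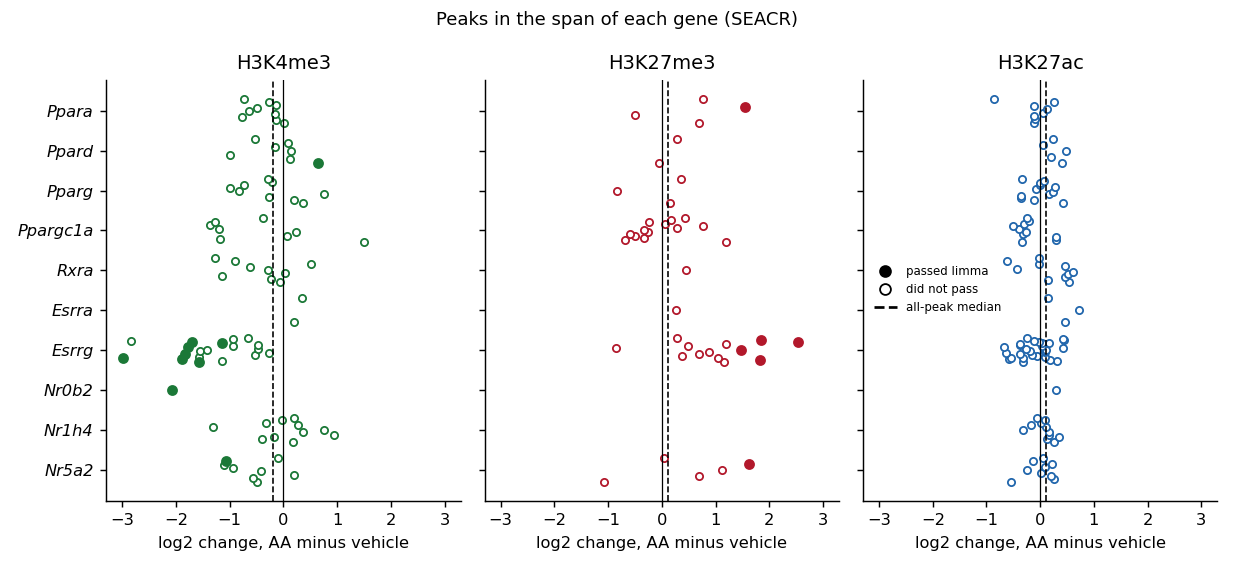
Difference between AA and vehicle (log2 scale, x axis) of every SEACR peak in the span of each member (y axis), with 1 panel per mark. Filled points passed limma, open points did not, and the dashed line is the median of all peaks of that mark. All 19 H3K4me3 peaks of Esrrg lie below 0 and 12 of its 13 H3K27me3 peaks lie above 0.

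At gene starts in vehicle, taking the strongest H3K4me3 peak within 1 kb of any listed start, Nr1h4 was the highest member, at 0.960 and 0.913, and Nr0b2 the lowest, at 0.450 and 0.523. The others lay between 0.567 and 0.809. Esrra and Ppara overlapped at the upper end of that range, Esrrg, Rxra, Pparg and Nr5a2 overlapped one another below them, and Ppard was lowest. In AA the order had the same top, with Nr1h4 at 1.24 and 1.17. Nr0b2, at 0.110 and 0.0827, and Esrrg, at 0.363 and 0.269, formed the bottom and lay below every other member. Ppargc1a had no peak of any mark within 1 kb of its 1 listed start, chr5:51567725. That start lies inside the RefSeq span, whose upstream end is 52115853, so other starts may be missing from the list. The strongest H3K4me3 peak of Ppargc1a, given below, lies away from the listed start and is not part of this order. It scored above the start peak of Nr1h4 in vehicle and in AA.

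**Figure D2:**
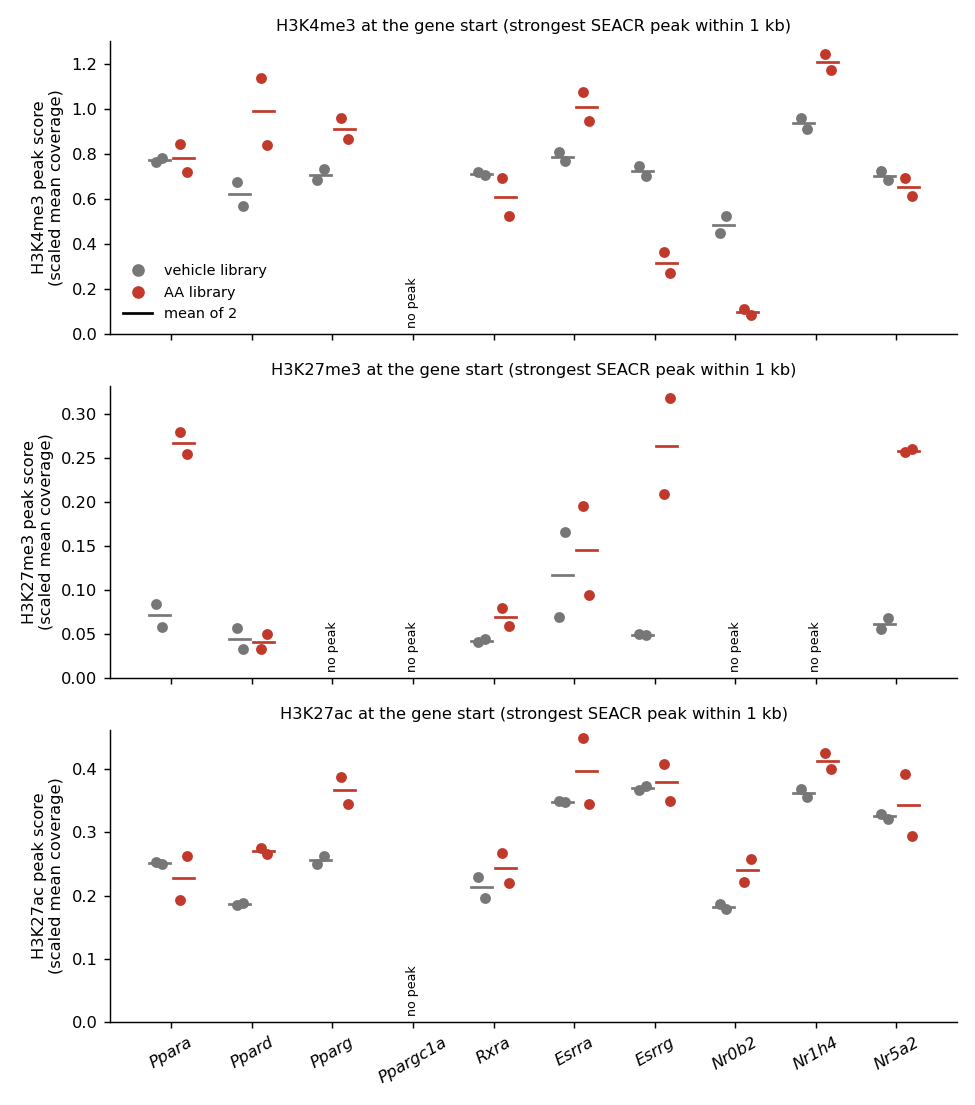
Score of the strongest SEACR peak within 1 kb of a listed start (y axis, scaled mean coverage) for each member (x axis), with 1 panel per mark. Points are libraries, grey for vehicle and red for AA, and bars are the means of 2. In H3K4me3 the AA points of Esrrg and Nr0b2 lie below their vehicle points and those of Ppard above them. Those of Pparg, Esrra and Nr1h4 also lie above and those of Rxra below, but these genes did not pass limma. Both AA points of H3K27me3 lie above the vehicle points at Ppara, Rxra, Esrrg and Nr5a2, of which that of Rxra did not pass limma.

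Among the receptors for fatty acids, Ppard gained H3K4me3 at its start, Ppara gained H3K27me3 just inside the gene with no called H3K4me3 peak, and Pparg had no called peak of any mark. Ppard (chr17:28232754-28301469) encodes the broadly expressed PPAR, known in intestinal epithelium for a program of fatty acid oxidation. Its start peak (chr17:28231597-28235210) scored 0.674 and 0.567 in vehicle and 1.14 and 0.843 in AA. Both AA libraries lay above both vehicle libraries, and the difference was 0.64 ± 0.17. The same start rose in the MACS2 peaks, from 1.25 and 0.976 to 2.14 and 1.59. Its H3K27ac peak there scored 0.186 and 0.189 in vehicle and 0.275 and 0.266 in AA, which do not overlap, with a difference of 0.40 ± 0.23 that did not pass. All 5 H3K27ac peaks of Ppard lay above 0, from 0.06 to 0.49. H3K27me3 over the start was low in every library, from 0.0328 to 0.0565.

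Ppara (chr15:85734910-85806851), the receptor that governs fatty acid oxidation in liver and gut, had an H3K4me3 start peak of 0.766 and 0.783 in vehicle and 0.847 and 0.722 in AA. The groups overlap, and the difference was 0.01 ± 0.17. Under the downstream part of this peak, just inside the gene, lay an H3K27me3 peak (chr15:85736087-85738142) that scored 0.0846 and 0.0579 in vehicle and 0.280 and 0.255 in AA. Both AA libraries stood above both vehicle libraries, the mean was 3.76 times higher, and the peak rose by 1.54 ± 0.33. The neighbouring H3K27me3 peak over the start itself (chr15:85734816-85735920) went the other way, with 0.138 and 0.0785 in vehicle and 0.0704 and 0.0601 in AA, a difference of -0.49 ± 0.64 that did not pass. Of the 9 H3K4me3 peaks in Ppara 8 lay below 0 and 0 were called. The peak 8.43 kb past the start had the most negative difference, with 0.510 and 0.409 in vehicle against 0.248 and 0.265 in AA. H3K27ac at the start was 0.253 and 0.250 in vehicle and 0.194 and 0.263 in AA, so the groups overlap.

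Pparg (chr6:115360879-115490404), the receptor known for fat cell formation and expressed in colon epithelium, had an H3K4me3 peak over its 2 upstream listed starts (chr6:115359719-115364495) of 0.683 and 0.735 in vehicle and 0.960 and 0.867 in AA. The groups do not overlap, but the difference of 0.35 ± 0.17 did not pass. With each library centred on its median it passed, at 0.57. H3K27ac over these starts was also higher in both AA libraries, with 0.250 and 0.262 in vehicle and 0.388 and 0.345 in AA, and its difference of 0.42 ± 0.18 did not pass. Of the 9 H3K4me3 peaks of Pparg 3 lay above 0 and 6 below, with 0 called. A weak peak 36.2 kb past the first start scored 0.0894 and 0.0610 in vehicle and 0.0821 and 0.234 in AA, which overlap, with a difference of 0.75 ± 0.60. A stronger peak 104 kb past that start scored 0.412 and 0.348 in vehicle and 0.284 and 0.164 in AA, a difference of -0.74 ± 0.30 that did not pass. No H3K27me3 peak lay within 1 kb of a listed start of Pparg.

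Rxra (chr2:27676445-27763319), which encodes the partner that PPARs and FXR need to bind DNA, had no called peak. The 2 H3K4me3 peaks around its first listed start scored 0.709 and 0.602 in vehicle against 0.625 and 0.630 in AA, and 0.720 and 0.706 against 0.692 and 0.522. Their differences were -0.06 ± 0.19 (0.16 with centred libraries) and -0.24 ± 0.19 (-0.38 after quantile normalization, where it passed). In the first the groups overlap, and in the second the AA libraries lay below. H3K27ac at Rxra ran above the vehicle level in 5 of 10 peaks without overlap. The upstream start peak, for example, scored 0.127 and 0.153 in vehicle and 0.203 and 0.269 in AA, with a difference of 0.54 ± 0.29. The H3K27me3 peak just past start 2 scored 0.0405 and 0.0438 in vehicle and 0.0797 and 0.0593 in AA, low in every library, with a difference of 0.44 ± 0.71. Among all H3K27ac peaks 28.5% had both AA libraries above both vehicle libraries and 10.7% had both below.

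Ppargc1a (chr5:51454249-52115853, minus strand), the PGC-1α coactivator of PPARs and estrogen-related receptors that promotes mitochondrial biogenesis, carried its strongest H3K4me3 14.9 kb past its listed start. That peak (chr5:51550995-51554686) scored 1.10 and 1.10 in vehicle and 1.32 and 1.26 in AA. Both AA libraries lay above, yet the difference of 0.22 ± 0.13 did not pass, and it was 0.44 with libraries centred, where it passed, and -0.09 after quantile normalization. H3K27ac over the same place was 0.385 and 0.282 in vehicle and 0.492 and 0.360 in AA, so the groups overlap. The upstream end of the span was the only place in Ppargc1a where an H3K4me3 peak met an H3K27me3 peak. There an H3K4me3 peak (chr5:52112630-52117359) scored 0.342 and 0.387 in vehicle and 0.329 and 0.224 in AA, and an H3K27me3 peak (chr5:52108903-52115767) scored 0.251 and 0.317 in vehicle and 0.318 and 0.330 in AA. The latter had the highest mean H3K27me3 score in vehicle among the member peaks, and neither passed.

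Esrrg lost H3K4me3 along its length and gained H3K27me3. At Esrra, the other estrogen-related receptor among the members, H3K4me3 rose in 2 MACS2 peaks and in no SEACR peak. Esrrg (chr1:187608510-188214885) encodes ERRγ, known for driving oxidative metabolism in heart, muscle and other tissues with high energy demand. All 19 of its H3K4me3 peaks lay below 0, with a median of -1.42, 14 had both AA libraries below both vehicle libraries, and 7 fell. Over all H3K4me3 peaks 30.5% had both AA libraries below both vehicle libraries and 18.3% had both above. In the MACS2 set all 16 Esrrg peaks lay below 0 and 10 fell.

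The deepest loss was not at a start. The H3K4me3 peak 54.5 kb past the first start (chr1:187660541-187666549) scored 0.899 and 0.767 in vehicle and 0.119 and 0.0552 in AA. It was the strongest H3K4me3 peak of Esrrg in vehicle and one of its weaker peaks in AA. The vehicle mean was 9.55 times the AA mean, and the peak fell by 2.99 ± 0.30 on the log2 scale. It alone among the member peaks was called in every fit that dropped a library. An H3K27me3 peak inside it (chr1:187662158-187664897) scored 0.0521 and 0.0852 in vehicle and 0.258 and 0.231 in AA, so the groups do not overlap, and it rose by 1.47 ± 0.37. H3K27ac over the same place was 0.357 and 0.331 in vehicle and 0.237 and 0.196 in AA. Both AA libraries were lower, and the difference of -0.54 ± 0.20 did not pass.

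The listed starts of Esrrg also fell. At start 1 (chr1:187608070-187612118) H3K4me3 was 0.547 and 0.729 in vehicle and 0.202 and 0.192 in AA, a fall of 1.56 ± 0.26, with the groups apart. At starts 2 and 3, which share a peak (chr1:187649961-187654011), it was 0.429 and 0.444 in vehicle and 0.0908 and 0.107 in AA, a fall of 1.90 ± 0.35. At start 4 (chr1:187996354-188004360) it was 0.746 and 0.702 in vehicle and 0.363 and 0.269 in AA, the smallest fall of the called Esrrg peaks at 1.15 ± 0.22. The vehicle level was 3.24, 4.42 and 2.29 times the AA level at these starts. The other 3 called peaks lay 97.0, 292 and 398 kb past the first start, and their vehicle means were 3.56 to 4.25 times their AA means.

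H3K27me3 at these starts lay on the opposite side of 0. Upstream of start 2, in a peak that ends within 1 kb before it (chr1:187649890-187650855), it scored 0.0496 and 0.0484 in vehicle and 0.209 and 0.319 in AA and rose by 1.83 ± 0.43. The peak that covers starts 2 and 3 (chr1:187651066-187652874) scored 0.0541 and 0.105 in vehicle and 0.255 and 0.146 in AA, apart, but its difference of 1.05 ± 0.42 did not pass. At start 4 (chr1:187997510-187998511) it scored 0.0401 and 0.00573 in vehicle and 0.226 and 0.338 in AA and rose by 2.54 ± 0.58, and the peak next to it (chr1:187999416-188000578) scored 0.0469 and 0.0413 in vehicle and 0.230 and 0.260 in AA and rose by 1.85 ± 0.47. Vehicle coverage was low at these places. Over the 6 called H3K27me3 peaks of the members, coverage ran from 0.0709 to 1.46 fragments per base in vehicle and from 2.22 to 4.41 in AA. At start 1 H3K27me3 was 0.0546 and 0.0957 in vehicle and 0.214 and 0.193 in AA, apart but not past the test, with a difference of 1.15 ± 0.41. In all, 12 of the 13 H3K27me3 peaks of Esrrg lay above 0, 10 had both AA libraries above both vehicle libraries and 4 rose. Over all H3K27me3 peaks 26.3% had both AA libraries above and 13.4% had both below.

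**Figure D3:**
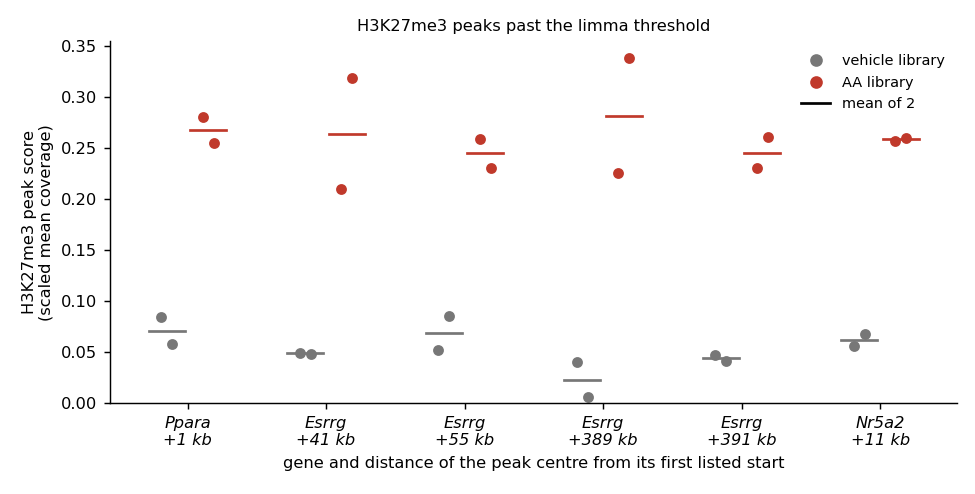
Scores (y axis, scaled mean coverage) of the 6 H3K27me3 member peaks past the limma threshold, by gene and distance of the peak centre from the first listed start (x axis). Grey points are vehicle libraries, red points are AA libraries and bars are means of 2. Every AA point lies at or above 0.209 and every vehicle point at or below 0.0852.

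No H3K27ac peak of Esrrg passed. Of its 28 peaks 16 lay below 0 and 12 above, with a median of -0.09, and 2 had an unadjusted p under 0.05. At start 4 H3K27ac was 0.366 and 0.374 in vehicle and 0.408 and 0.349 in AA, groups that overlap, with a difference of 0.03 ± 0.16 (-0.12 after quantile normalization). Just past starts 2 and 3 it was 0.209 and 0.218 in vehicle and 0.121 and 0.120 in AA, apart, with a difference of -0.58 ± 0.32 that did not pass. In the 500 kb on either side of the extended span, 0 of 10 H3K4me3 peaks, 0 of 25 H3K27me3 peaks and 0 of 18 H3K27ac peaks were called by limma. The flanking peaks had a median of -0.83 for H3K4me3, below 0 as inside the gene, and of -0.55 for H3K27me3, on the other side of 0 from the peaks inside it.

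**Figure D4:**
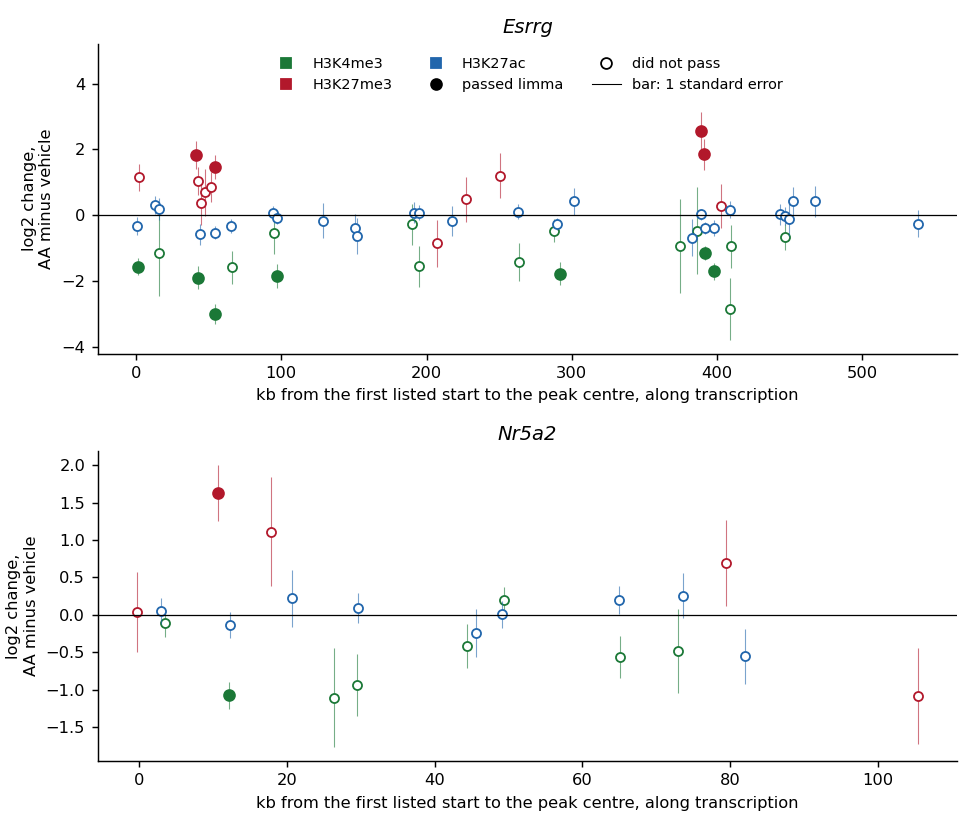
Difference between AA and vehicle (log2 scale, y axis, bars of 1 standard error) of each SEACR peak against the distance of its centre from the first listed start, in kb along transcription (x axis), for Esrrg and Nr5a2. Green is H3K4me3, red H3K27me3 and blue H3K27ac, and filled points passed limma. In Esrrg the filled green points run from the first start to 398 kb past it and lie below 0, and the filled red points lie above 0.

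Esrra (chr19:6910977-6922048, minus strand), encoding ERRα, the widely expressed partner of PGC-1α at mitochondrial genes, had an H3K4me3 start peak (chr19:6916692-6925948) of 0.809 and 0.768 in vehicle and 1.07 and 0.948 in AA. The groups do not overlap, and the difference of 0.35 ± 0.16 did not pass, although it did with centred libraries, at 0.56. MACS2 divided this region, and 2 of its narrower peaks rose. The first (chr19:6920144-6921254) went from 1.67 and 1.80 to 2.76 and 2.41, the second (chr19:6921772-6922606) from 2.16 and 1.91 to 3.53 and 2.76. All 3 H3K27ac peaks of Esrra lay above 0, and the strongest, at the start, scored 0.350 and 0.347 in vehicle and 0.449 and 0.345 in AA. H3K27me3 at the start was 0.0691 and 0.166 in vehicle and 0.196 and 0.0950 in AA, with no separation.

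In the bile acid circuit the receptor Nr1h4 had no called peak and its target Nr0b2 lost H3K4me3. Nr5a2 lost H3K4me3 at a peak inside the gene, where it gained H3K27me3. Nr1h4 (chr10:89454234-89533645, minus strand) encodes FXR, the bile acid receptor of ileum and liver. Its start peak (chr10:89503153-89507674) scored 0.960 and 0.913 in vehicle and 1.24 and 1.17 in AA. Both AA libraries were higher, the difference of 0.36 ± 0.14 did not pass, and it was 0.57 and past the test with centred libraries. None of its 11 H3K4me3 peaks was called by limma, 6 lay above 0 and 5 below, and no H3K27me3 peak lay in the gene. H3K27ac at the start was 0.368 and 0.356 in vehicle and 0.425 and 0.400 in AA, with a difference of 0.16 ± 0.16. Of its H3K27ac peaks 8 of 11 lay above 0, where 39500 of 62547 did among all H3K27ac peaks.

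Nr0b2 (chr4:133553376-133556686) encodes SHP, a receptor without a DNA-binding domain that FXR induces and that represses bile acid synthesis through LRH-1. Its single H3K4me3 peak (chr4:133552367-133554988) scored 0.450 and 0.523 in vehicle and 0.110 and 0.0827 in AA. The groups stand far apart: the vehicle mean was 5.04 times the AA mean, and the peak fell by 2.08 ± 0.34. MACS2 placed 2 peaks there, both lower in AA, and 1 of them fell, from 0.604 and 0.841 to 0.126 and 0.0761. H3K27ac over the same start was 0.186 and 0.179 in vehicle and 0.222 and 0.257 in AA. The AA libraries were the higher ones in that mark, with a difference of 0.29 ± 0.25 that did not pass. No H3K27me3 peak lay in the gene. Its upstream window, printed above, holds 3 CpG, and a relation of CpG to H3K27me3 was not tested.

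Nr5a2 (chr1:136842562-136960448, minus strand) encodes LRH-1, known in crypt cells for renewal and local steroid synthesis and in the liver for bile acid synthesis. Its H3K4me3 peak 12.2 kb past the first start (chr1:136945276-136951218) scored 1.06 and 0.982 in vehicle and 0.548 and 0.407 in AA. The vehicle level was 2.14 times the AA level, without overlap, and the peak fell by 1.07 ± 0.18. In MACS2 a peak at the same place (chr1:136946826-136949714) fell from 1.59 and 1.45 to 0.852 and 0.661. The start peak (chr1:136952063-136961851), which spans both listed starts, scored 0.726 and 0.683 in vehicle and 0.696 and 0.611 in AA, with overlap and a difference of -0.11 ± 0.18, or 0.11 with centred libraries. MACS2 resolved that region, and the 2 peaks nearest the first start were higher in both AA libraries, by 0.34 and 0.40, neither past the test. The SEACR peak covers both starts, so it gives no value for the first start alone, and its sign depended on the scaling.

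The H3K27me3 gain in Nr5a2 covered the same stretch. A peak that reaches from the lost H3K4me3 peak to start 2 (chr1:136944265-136955207) scored 0.0560 and 0.0678 in vehicle and 0.257 and 0.260 in AA. The AA mean was 4.18 times the vehicle mean, the groups were apart, and it rose by 1.62 ± 0.37. The H3K27me3 peak at the first start (chr1:136960115-136961391) scored 0.129 and 0.0803 in vehicle and 0.0922 and 0.122 in AA, with a difference of 0.04 ± 0.53. H3K27ac did not separate the groups at the lost peak, with 0.333 and 0.326 in vehicle and 0.336 and 0.256 in AA, nor at the start, with 0.329 and 0.321 against 0.393 and 0.294.

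At Esrrg and Nr5a2 the gains of H3K27me3 lay over losses of H3K4me3. All 6 of the H3K27me3 member peaks that rose overlapped an H3K4me3 peak by at least 1 base, and 5 of them overlapped one that fell, the exception being Ppara. Among all peaks 35 of the 301 risen H3K27me3 peaks that overlapped an H3K4me3 peak overlapped a fallen one, or 11.6%. From the other side, 4 of the 5 fallen H3K4me3 member peaks that overlapped any H3K27me3 peak overlapped a risen one, against 33 of 247 among all peaks, or 13.4%. The member peaks are neighbours in 3 genes and were chosen with these values known, so the shares are given as counts.

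The wider pathways were read from 5 gene lists, taking 1 H3K4me3 peak per gene start, where 4.96% of 14414 genes rose, 1.4% fell and the median difference was 0.18. Of 22 PPAR target genes with a peak, 3 rose and 1 fell, with a median of 0.33. Hadha and Hadhb share a peak, which was counted for each. Pdk4, the kinase that turns pyruvate away from oxidation, went from 0.341 and 0.437 in vehicle to 0.743 and 0.650 in AA, a rise of 0.81. Me1, a source of NADPH for fat synthesis, rose by 0.76 and Acadl, a dehydrogenase of fatty acid oxidation, by 0.60. Slc27a2, which imports and activates very long chain fatty acids, ran the other way, from 1.08 and 1.06 in vehicle to 0.532 and 0.417 in AA, a fall of 1.14. It also gained H3K27me3 at its start, from 0.0532 and 0.0662 to 0.311 and 0.294, the same 2 directions as at Esrrg and Nr5a2. Of the 6 PPAR target genes with an H3K27me3 start peak, no other passed the test. The H3K4me3 calls of all 4 genes were lost without either vehicle library and in the MACS2 peaks, where Slc27a2 differed by -0.32. The H3K27me3 call of Slc27a2 was lost without vehicle library 1 or either AA library.

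At an unadjusted p under 0.05 stood 30.5% of all gene-start peaks of H3K4me3 and 11.9% of those of H3K27ac. Among 18 genes driven by estrogen-related receptors and PGC-1, limma called 0 in H3K4me3, with 6 at an unadjusted p under 0.05 and a median of 0.24. Among 12 targets of FXR, SHP and LRH-1, where Abcg5 and Abcg8 share a peak, limma called 0. There 3 stood at an unadjusted p under 0.05, and the median was -0.10. Among 14 receptor coregulators limma called 0, with 7 at an unadjusted p under 0.05 and a median of 0.33. Fgf15, the hormone by which ileal FXR tells the liver to stop making bile acids, rose in H3K27me3, by 0.71, from 0.190 and 0.207 in vehicle to 0.397 and 0.300 in AA. That call was lost when any of the 4 libraries was left out, and with centred libraries. Of the 3 targets of FXR, SHP and LRH-1 with an H3K27me3 start peak, no other passed the test. At gene starts 2.8% of 7499 genes rose and 0.213% fell in H3K27me3. No gene of these lists was called in H3K27ac by limma, where 0.187% of 11745 genes rose and 0 fell, with 2 to 4 genes per list at an unadjusted p under 0.05.

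Of 34 other nuclear receptors with an H3K4me3 start peak 2 rose and 3 fell, with a median of 0.14. Nr2f2, which encodes COUP-TFII, fell by 1.13, from 0.427 and 0.411 to 0.222 and 0.141. Nr2e3, a receptor of photoreceptor cells, fell by 0.94. Nr3c2, the mineralocorticoid receptor, rose by 0.58, from 0.958 and 1.04 to 1.53 and 1.46. The calls of Nr2f2, Nr2e3 and Nr3c2 were lost without either vehicle library, and that of Nr2e3 also with centred libraries and in the MACS2 peaks. Over the 3 marks at the gene start in vehicle, the receptor among 39 most like each member was found by Euclidean distance of mean log2 scores. For each mark the strongest peak within 1 kb of any listed start was taken. The marks of a gene can thus come from different starts, as at Esrrg and Rxra. A missing peak was set at the pseudocount, so genes that both lack a peak of a mark do not differ in it. The closest pairs were Nr1h4 with Hnf4g, at 0.09, and Pparg with Rxrb, at 0.15. None of these genes had an H3K27me3 start peak, and neither had Nr0b2 or Nr4a1. Nr0b2 was nearest to Nr4a1 (0.27), Esrra to Hnf4a (0.40), Nr5a2 to Nr1d2 (0.44), Esrrg to Nr1d1 (0.54), Ppara to Nr1d2 (0.55), and Ppard and Rxra to Nr2e3 (0.58 and 0.72). Ppargc1a, without a peak at its listed start, tied with every receptor that had no start peak. These distances describe 2 vehicle libraries per mark and say nothing of shared control.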

How the data were processed

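Libraries were mapped to vehicle or AA by their labels, 2 per group and mark, and the group named Control in the deposited table was taken as vehicle. The authors deposited 1 table of peak scores in mm10, which hold a signal. Multiplied by peak length, at least 99.99% of values below 1000 steps fell within 0.1 step of whole multiples of a library-specific step, so a score is coverage per base times a factor of the library. Peaks came from SEACR and MACS2, per the submitters' processing notes. Aligner, versions, scaling, and whether libraries were pooled for peak calling: not given in the sources used here.

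Scores were compared as log2(score + pseudocount), the pseudocount being the 5th percentile of positive values: 0.0253 for H3K4me3, 0.0329 for H3K27me3 and 0.0693 for H3K27ac in SEACR peaks. Each mark was fitted over all its peaks with limma 3.58.1 (trend and robust) in R 4.3.3, without a filter, with Benjamini-Hochberg adjustment at 0.05, and the fit was tested on simulated data. There it gave no called change the wrong sign and missed most of the smaller changes, but the share of unchanged peaks among its calls was above the nominal threshold for H3K4me3 and H3K27ac, so calls near the threshold are uncertain. The simulated spread was set by mean level alone, without a depth difference between groups. It therefore does not cover the depth difference of the H3K4me3 libraries. An exact permutation test of 2 against 2 libraries cannot go below 0.333 (two-sided). Same-numbered libraries did not deviate together (correlations of -0.0023, 0.0025 and 0.0085 for the 3 marks). With 2 libraries per group this check cannot exclude that the numbers pair them. Gene starts came from RefSeq GRCm38.p6, and for 40 of 153 list genes without a listed start both span ends served. Members, lists and tests were chosen with earlier results of these data known. By rule the text names every member with its start peak and called peaks (otherwise its strongest peak), up to 4 called genes per list and mark (1 of them is not reported here), and the nearest other receptor. Other peaks were named after their values were seen. Alternatives were the peak set, scaling, pseudocount, filter, variance model, threshold, window, left-out libraries and a replicate block.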

Additional observations from a re-analysis of the deposited data

How the results depend on the processing

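The count of called H3K4me3 member peaks, 10, came to between 9 and 15 with MACS2 peaks, centred or quantile-normalized libraries, a pseudocount 5 times larger, the filter, a threshold of 0.01, and narrower or wider windows. It was 0 with limma without trend and robust, and 1 to 30 with a library left out. The 6 H3K27me3 calls became 0 with centred libraries, 1 after quantile normalization, 2 with the larger pseudocount, 0 without trend and robust, 1 at a threshold of 0.01 and 0 to 0 with a library left out. With centred libraries the called share of all peaks went from 2.92% to 10.4% for H3K4me3 and from 0.545% to 0.075% for H3K27me3. The cause of these shifts was not tested. MACS2 gave no H3K27me3 value, having no member peak of that mark. The H3K27ac count was 0 in every fit. With the replicate block the counts were 11, 6 and 0, and the member start peaks, the called member peaks and the named list genes kept their side of the threshold. Other named member peaks were not followed one by one. No called value changed sign under any of these settings. Dixon's outlier test does not apply to groups of 2. With 2 libraries per group, and vehicle H3K27me3 coverage of at most 1.46 fragments per base at the called peaks, small differences were not detectable.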
